A study of Mus musculus with 6 samples.

Results

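Bambi, Tiam1, Tspan5 and Plcd3 code for proteins of cell signaling and are 4 of the 61 genes that the authors listed as differentially expressed in mouse colon crypts upon deletion of the chromatin remodeler gene Smarcad1. They were taken from that list by their symbols, and all 4 were found. RNA-seq was performed on colon epithelium released as whole crypts, the tubular glands that hold stem and dividing cells at the base and differentiated cells above. There were 3 libraries of wild type (WT) mice and 3 of Smarcad1-KO mice (KO), all of the C57BL/6 strain and male. In KO, exons of Smarcad1 were flanked by loxP sites (Smarcad1 fl/fl) and were removed by Cre recombinase under the Villin promoter, which is active in the epithelium of the intestine, so that other cells in a crypt suspension keep the gene. The age of the mice, and whether WT carried floxed alleles or Cre, are not given in the sources used here.

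The list was selected by the authors on this very comparison of KO with WT, at a corrected p-value under 0.05. The values below therefore describe genes that had been chosen for their difference, and no test was made. The measurement is 1 mean log2 expression value per genotype, normalized to total reads by the authors. Neither values per library nor the sequencing depth of the libraries were analysed here, so the differences carry no error of their own, and overlap between KO and WT libraries was not examined. In such bulk samples, fewer cells that express a gene and less RNA per cell cannot be told apart.

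Crypt cells are kept in balance by signals that cross the cell membrane. Wnt proteins are strongest at the crypt base and sustain stem cells, bone morphogenetic proteins (BMP) and other TGF-beta family ligands favor differentiation and restrain growth, and Notch receptors, which are cut by the protease ADAM10 when a neighboring cell presents a ligand, set the choice between absorptive and secretory fates. Bambi is a membrane protein that resembles TGF-beta family receptors but has no kinase domain, and it acts as a decoy that dampens TGF-beta and BMP signals. Tspan5 is a tetraspanin of the group that binds ADAM10 and guides it to the cell surface. Tiam1 is an exchange factor that activates the small GTPase Rac1 and has been linked to Wnt signaling, and Plcd3 is a phospholipase C, an enzyme that splits the membrane lipid PIP2 into the messengers inositol trisphosphate and diacylglycerol.

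In KO crypts, the decoy receptor gene Bambi had the higher mean, while the genes of the exchange factor, the tetraspanin and the phospholipase had lower means than in WT. Thus 1 of the 4 genes was higher and 3 were lower. In the whole list, 55.7% of the genes were higher and 44.3% were lower in KO. Bambi, Tiam1 and Plcd3 each differed by over 1 log2 unit. Among all listed genes, 18.0% were higher and 19.7% were lower by that margin. As these shares and the members come from the same selected comparison, nothing is read from them.

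At the level of ligands and receptors, Bambi had a mean log2 expression of 6.26 in KO and of 4.70 in WT. Its KO mean exceeded its WT mean by 1.56 log2 units. On the linear scale, this corresponds to 76.4 in KO against 25.9 in WT, or 295% of the WT level. More decoy receptor transcript was thus measured in the KO group mean, which says nothing about Bambi protein or about the activity of the pathway.

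Tspan5, which acts beside the Notch receptors through ADAM10, had a mean log2 expression of 3.38 in KO and of 4.28 in WT. The difference of -0.90 was the smallest of the 4 genes and leaves 53.5% of the WT level. Its difference was the median of the 27 listed genes with lower means in KO, at -0.90. Of all 61 genes, Tspan5 also lay closest to the threshold of the list. The genes just outside the threshold were not analysed here.

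Inside the cell, Tiam1 had a mean log2 expression of 3.12 in KO and of 4.74 in WT, with a KO minus WT difference of -1.62. The KO level was 32.5% of the WT level, and WT exceeded KO by 3.08-fold. Smarcad1, the gene that was deleted, averaged 2.87 in KO and 4.58 in WT, which is 30.7% of the WT level. The value was counted over the whole gene, so transcript outside the deleted exons still counts toward it. Tiam1 thus differed between genotypes by nearly as much as the targeted gene itself, with a gap of 0.082 log2 units between these differences.

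Plcd3 had the largest difference of the 4 genes. The mean log2 expression of this gene reached 0.67 in KO and 3.31 in WT. The difference was -2.64, and the KO level was 16% of the WT level. The KO mean is low, at 1.59 on the linear scale against 9.94 in WT, and the size of such a difference depends on how values near zero are treated. With a pseudocount of 1 added to the linear values, the Plcd3 difference was -2.08, still the largest of the 4, whereas Bambi went only from 1.56 to 1.52.

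**Figure D1:**
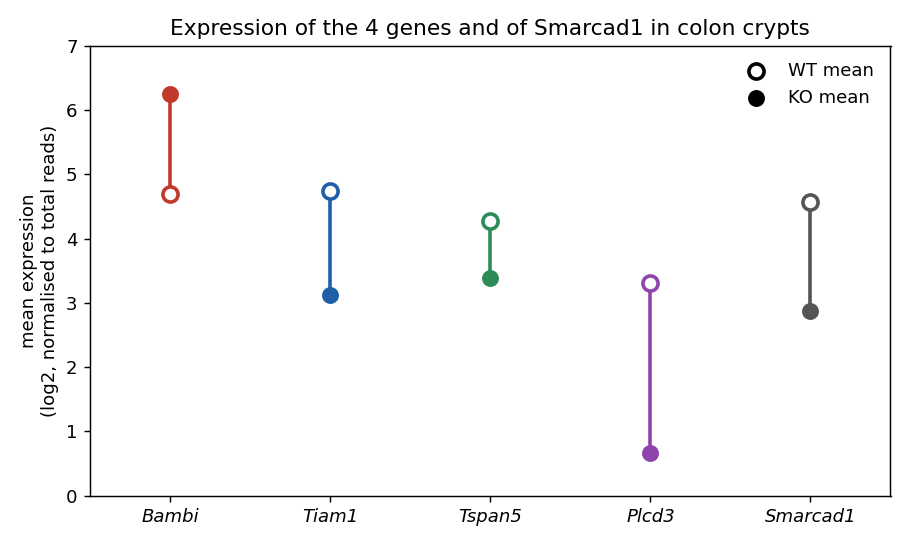
Mean log2 expression (y axis, normalized to total reads by the authors) of the 4 genes and of Smarcad1, with open circles for WT and filled circles for KO, each the authors' mean of 3 libraries with no error shown. The KO circle lies above the WT circle for Bambi and below it for the other genes, and the line is longest for Plcd3 (0.67 in KO, 3.31 in WT). Heights are not comparable between genes, because a scaling by transcript length is not settled.

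The order of the differences was examined over the listed genes of each direction. Bambi ranked 9 of the 34 genes with higher means in KO. Plcd3 ranked 4, Tiam1 ranked 8 and Tspan5 ranked 14 of the 27 genes with lower means. These ranks depend on how low values are treated. With a pseudocount of 1, Bambi ranked 5, and with genes left out that had a mean log2 under 0, Tiam1 ranked 5 and Plcd3 ranked 2 in their direction. The median difference was 0.76 for all higher genes and -0.90 for all lower genes, so that Bambi, Tiam1 and Plcd3 lay beyond the median of their direction. Among the 3 lower members, the differences of Plcd3 and Tiam1 were 1.02 log2 units apart, and those of Tiam1 and Tspan5 were 0.72 apart. Without values per library it was not examined whether these gaps exceed the spread.

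Listed genes whose pattern over the 2 genotype means was most like that of a member were found by the nearest difference of the same sign. For Bambi these were Mctp1, a gene for a calcium-binding membrane protein (1.59), and 2610524H06Rik (1.68). For Tspan5 they were Sycn, which codes for syncollin, a protein of secretory granules (-0.96), and Osr2, a transcription factor gene (-0.78). For Plcd3 they were Pex5l (-2.81) and Prss41, a serine protease gene (-2.25), and with genes of low means left out, neither remained nearest. For Tiam1 they were Smarcad1 itself (-1.70) and Gzmb (-1.55). As only 2 means describe each gene, a near difference is no sign of shared control.

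**Figure D2:**
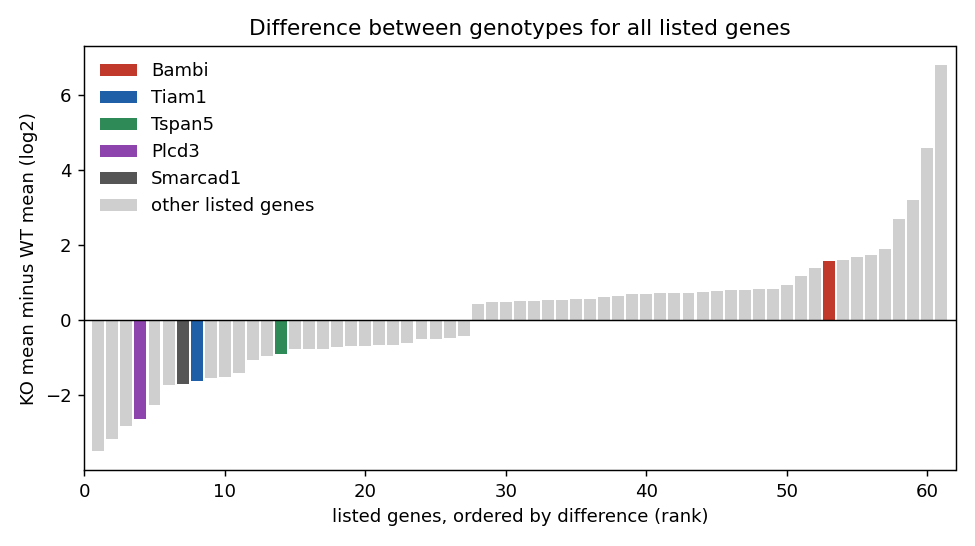
KO mean minus WT mean (y axis, log2) of all 61 listed genes, ordered along the x axis from the most negative to the most positive difference, with 1 bar per gene and no error shown. Plcd3 (-2.64) is the fourth bar from the left, Tiam1 (-1.62) stands beside Smarcad1 (-1.70), Tspan5 (-0.90) is in the middle of the negative bars, and Bambi (1.56) is the ninth bar from the right.

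Gzmb, which codes for granzyme B of cytotoxic lymphocytes, is a marker of immune cells rather than of the epithelium. It averaged 1.17 in KO and 2.72 in WT and thus was at 34.2% of the WT level in KO, close to Tiam1 at 32.5%. It was the only listed gene among 9 immune markers, and 0 of 9 markers of stroma, vessels and nerve were listed. For the markers that are not listed, such as Ptprc and Cd3e, no level was analysed here. The part of lymphocytes in the Tiam1 value was not tested. Of 16 markers of the colon epithelium, 0 were listed, so the labeled tissue could not be checked from its markers in a list of changed genes. The share listed over all genes is not given, so nothing is read from these marker counts.

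To see whether the pathways around the 4 genes were listed with them, 175 other genes of these pathways were looked up. These pathway lists were chosen with earlier results of these data known. Dlk1, related to Notch ligands, and Nox1, which depends on Rac1, were listed by the authors but stood on none of the pathway lists. The counts below thus depend on how the pathway lists were composed. Of 44 genes of TGF-beta and BMP signaling, 0 were listed, including 10 ligands, 12 receptors, 6 Smad transducers and 10 inhibitors. Of 51 genes of Wnt and Rac signaling, 0 were listed, including Rac1, the partner of Tiam1, and 11 targets of Wnt such as Axin2, Ascl2 and Sox9. Of 40 genes of Notch signaling, 0 were listed, including Adam10, the partner of Tspan5, 4 Notch receptors and 7 targets and fate genes such as Hes1 and Atoh1. Of 40 phosphoinositide genes, 0 were listed, including 13 other phospholipase C genes and 6 genes of calcium release channels and receptors. The closest relatives of the 4 genes were also absent from the list, with 0 of 15 listed. These were 7 type I receptors of the TGF-beta family for Bambi, Tiam2 for Tiam1, 5 tetraspanins for Tspan5, and Plcd1 and Plcd4 for Plcd3. The number of genes that entered the selection was not analysed here, so the share listed over all genes is not given. The authors' list holds only 61 genes, so counts of 0 are uninformative for sets of this size, and nothing is read from them. A gene that is not listed is not shown to be unchanged.

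The 4 genes lie apart in the genome (build GRCm38). In the authors' coordinates, Bambi is on the plus strand of chromosome 18 from 3507957 to 3516404, and Tspan5 is on the plus strand of chromosome 3 from 138742195 to 138904433. Tiam1 is on the minus strand of chromosome 16 from 89787111 to 89980080, and Plcd3 is on the minus strand of chromosome 11 from 103070304 to 103101658. The nearest other listed gene was Lpo for Plcd3, at 15.2 Mb, and Slc16a1 for Tspan5, at 34.1 Mb. For Tiam1 and Bambi it was Etv5 at 67.3 Mb and Mbd1 at 70.8 Mb. None of the 4 genes had another listed gene as a close neighbor.

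Their gene models, taken from GENCODE M21, differ in ways that bear on what was counted. Bambi is compact, with 1 annotated transcript of 3 exons, and only 15.4% of its 5074 bases are coding. Tiam1 has 15 annotated transcripts, 6 of them protein-coding and each of these with a start of its own, and its longest coding sequence has 4773 bases in a transcript of 28 exons. Plcd3 has 5 transcripts, and its counted span matches the annotation at both ends, with 3393 exonic bases. Tspan5 has 9 transcripts, and the counted span stops 3472 bases before the annotated end. That span holds 53% of the exonic bases of GENCODE M21, so that much of the annotated 3′ end of Tspan5 did not enter its value. For Tiam1, 1 annotated transcript begins 163689 bases upstream of the counted span with 2 exons that were not counted, but 98.6% of the exonic bases lie inside it.

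**Figure D3:**
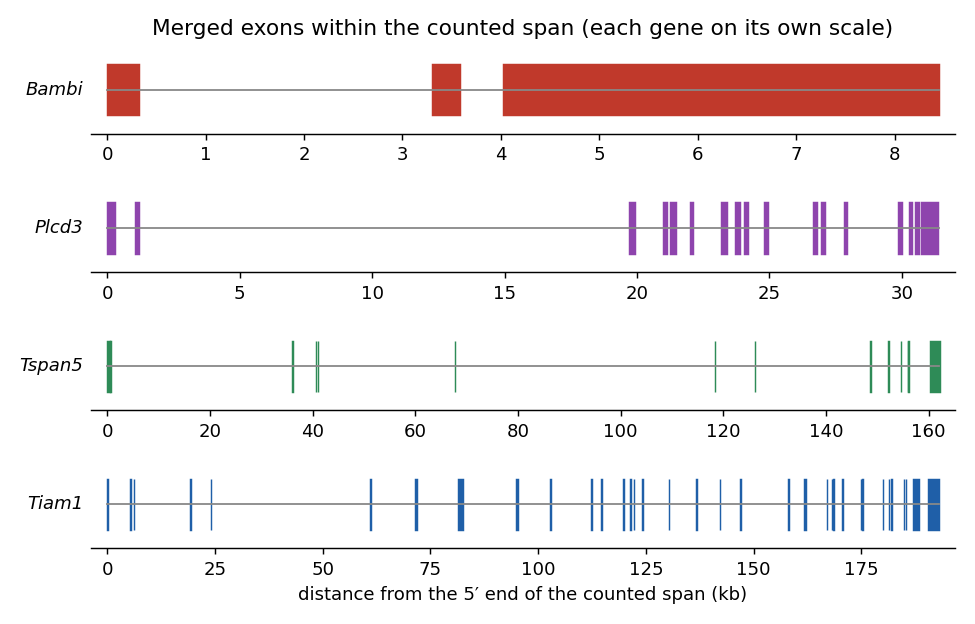
Exons of all annotated transcripts merged (colored boxes) along the counted span of each gene (gray line), with the distance from the 5′ end of the span in kb on the x axis and a separate scale per gene. Bambi is mostly exon (59.7% of its span), whereas exons fill 10.8% of the span of Plcd3, 5.14% of that of Tiam1 and 2.41% of that of Tspan5.

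The authors kept uniquely mapped reads only, so sequence shared with other genes was examined. Of the 50-base words in the annotated transcripts of Bambi, Tiam1, Tspan5 and Plcd3, 0 occurred in transcripts of any other gene on either strand. The number of words examined was 5025, 10125, 7397 and 3485, respectively. Words shared with the close relatives listed above were among these and were likewise 0. Only exact matches in annotated transcripts were counted. Near matches and copies elsewhere in the genome were not examined, so reads lost to them are not excluded. Plcd3 overlaps the long non-coding RNA gene Gm26668 on the other strand (chromosome 11, 102863337 to 103075903), but they share 0 exonic bases. A pseudogene, Gm16060, lies within Tspan5 on the other strand, again with 0 shared exonic bases.

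The promoters of the members with lower means were compared, using windows of 250 bases before and 50 bases after a RefSeq transcript start (GRCm38.p6). Windows were at hand for 3 of the 4 genes, Tspan5, Plcd3 and Tiam1, with 2 starts for Tiam1. These windows differ widely in CG dinucleotides, the sites of DNA methylation in mammals, which crowd together at the promoters of many broadly expressed genes. The window of Tspan5 had 43, more than 97.4% of the 32851 RefSeq windows, and that of Plcd3 had 22, more than 76.9%. The windows of Tiam1 had 7 and 9, and the median of all windows was 7. The GENCODE models hold 6 coding starts for Tiam1, 6 for Tspan5 and 2 for Plcd3, so not every start was covered. Which starts are used in crypts was not examined. The GC content was 73.3% for Tspan5, 62.3% for Plcd3, and 47% and 50.7% for Tiam1. The contrast is visible in the bases that precede the starts of Tspan5 and Tiam1, shown 5′ to 3′ on the strand of the gene with CG dinucleotides in capitals. The Tspan5 stretch is chr3:138741958-138742194, plus strand, with 237 bases up to its annotated first exon. The Tiam1 stretch is chr16:89974700-89974949, minus strand, with 250 bases before the first of its RefSeq starts, which lies farther upstream than the other.
Tspan5: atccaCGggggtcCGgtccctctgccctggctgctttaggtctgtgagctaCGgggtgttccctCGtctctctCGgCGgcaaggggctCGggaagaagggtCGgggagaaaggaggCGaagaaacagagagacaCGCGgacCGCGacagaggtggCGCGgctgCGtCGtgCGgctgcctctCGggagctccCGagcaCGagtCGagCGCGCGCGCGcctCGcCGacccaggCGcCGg
Tiam1: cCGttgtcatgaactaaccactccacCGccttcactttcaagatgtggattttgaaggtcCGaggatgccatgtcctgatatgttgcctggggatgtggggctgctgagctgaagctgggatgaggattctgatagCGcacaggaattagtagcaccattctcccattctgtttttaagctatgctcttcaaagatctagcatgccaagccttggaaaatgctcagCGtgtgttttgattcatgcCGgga

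**Figure D4:**
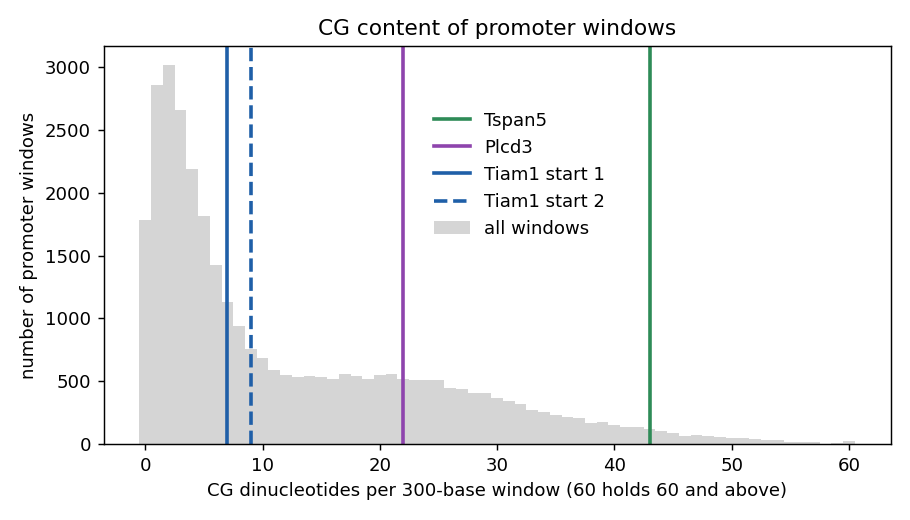
Number of CG dinucleotides per promoter window of 300 bases (x axis) for all 32851 RefSeq windows (gray bars, number of windows on the y axis), with lines for the windows of 3 members. Both Tiam1 starts (7 and 9) lie near the median of 7, Plcd3 (22) lies in the long right shoulder, and Tspan5 (43) lies near its end.

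The start of Plcd3 lies head to head with that of Acbd4, a gene for an acyl-CoA binding domain protein on the other strand. Only 23 bases separate their annotated starts, at chr11:103101659-103101681, and they are shown on the strand of Plcd3 because they are the whole space between the genes.
Plcd3: tccctccctctctccctcctccc
This stretch holds 0 CG dinucleotides and is made of C and T alone. Acbd4 was not among the listed genes, and its level was not analysed here.

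The windows were searched on both strands for the letters of 5 motifs, none of which overlapped another at its matches. For Notch signaling, the RBPJ motif was taken as GTGGGAA, which had 0 matches in the 4 windows and is held by 6.38% of all RefSeq windows. The TATA box, taken as TATAAA, also had 0 matches, and 13.6% of all windows hold it. For TGF-beta and BMP signaling, a short and a GC-rich SMAD motif were used. The short one, CAGAC, which 49.6% of all windows hold, had 1 match in Tspan5, 1 in Plcd3, 1 at the second Tiam1 start and 0 at the first. The GC-rich one, GGCGCC, held by 11.9% of all windows, had 1 match in Tspan5, 2 in Plcd3 and 0 in Tiam1. The TCF/LEF motif of Wnt signaling, CTTTGAT, had 1 match, read on the other strand 26 bases after the second start of Tiam1, and 3.73% of all windows hold it. That match is shown in capitals within 30 bases at chr16:89818309-89818338 on the strand of Tiam1.
Tiam1: gagccaggtaaaATCAAAGcatgagttctt
A match is a run of letters and not a known binding site, and no match says only that these letters are not in the window.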

How the data were processed

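RNA-seq had been performed on 6 libraries of whole colon crypts, 3 WT and 3 KO, grouped by their titles. The authors trimmed reads with Trim Galore 0.4.2, mapped them to GRCm38 with HISAT2 2.0.1, kept unique alignments and counted them in SeqMonk over the exons of merged isoforms. The deposited expression values are log2 values normalized to total reads, 1 mean per genotype, and a further scaling by transcript length is not excluded. It cancels in the difference of a gene. The deposited p-values are corrected p-values of the authors' DESeq2 comparison. They were used to check that 0 of 61 genes were at or above 0.05 and to find the gene nearest that threshold, and are not printed.

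The difference is the KO mean minus the WT mean. No test was made, because the members were chosen on this contrast. The planned model also needs values per library, and the columns that were used hold means. The paper also reports values by sample for these crypts, which were not used here. The 4 genes and all lists were chosen with earlier results of these data known. The named genes are the members, Smarcad1, the 2 listed genes nearest in difference to each member, neighbors in the order and listed genes of the pathway and marker lists. Others were named after their values were seen. Gene models and transcripts came from GENCODE M21 and promoter windows from RefSeq. Word and motif searches were tested on simulated data. As alternatives, a pseudocount of 1 or 0.1, the removal of genes with a mean log2 under 0, words of 75 bases and windows without the 50 bases after the start were tried. A planned comparison of protein sequences with relatives was not run. Python 3.11.15 and matplotlib 3.10.9 were used.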

Additional observations from a re-analysis of the deposited data

How the results depend on the processing

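With the deposited columns that were used, no paired analysis was possible because they hold 1 mean per genotype and carry no replicate numbers. This limit is one of the columns chosen, since the paper also reports values by sample, and pairing was not tested on those. Leaving out each library was not run, since values per library were not used here, and limits set by depth were not examined. Log2 values that shifted by at least 0.1 are given. With a pseudocount of 1, which shrinks any difference by construction, Tiam1 went to -1.52, Plcd3 to -2.08 and Smarcad1 to -1.58, while Bambi and Tspan5 moved less. With a pseudocount of 0.1, 0 of these 5 differences moved. Ranks within a direction shifted with the pseudocount of 1 to 5 for Bambi, 7 for Tiam1 and 3 for Plcd3. With genes left out that had a mean log2 under 0, ranks were 7 for Bambi, 5 for Tiam1, 11 for Tspan5 and 2 for Plcd3, since fewer genes were ranked. That filter kept 0 of the 2 nearest genes of Plcd3, as both have a KO mean under it, and both nearest genes of each other member. Words of 75 bases again gave 0 shared words for all 4 genes. Without the bases after the start, Plcd3 kept 1 match of GGCGCC and the second Tiam1 start kept 0 of CTTTGAT, and the other 18 motif counts were the same.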

Other observations

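Some listed genes outside the pathway lists were picked here after their values had been seen, and no fixed list defined them. Nox1, an NADPH oxidase of the colon epithelium that depends on Rac1, averaged 6.25 in KO and 5.72 in WT, with a KO minus WT difference of 0.53, opposite in sign to that of the Rac exchange factor gene Tiam1. Dlk1, which codes for a membrane protein related to Notch ligands, averaged 2.85 in KO and 1.14 in WT, with a KO minus WT difference of 1.72, opposite in sign to that of Tspan5. Sema7a, a membrane-anchored semaphorin gene, averaged 2.61 in KO and 4.34 in WT, with a KO minus WT difference of -1.73. Etv5, an ETS transcription factor gene, averaged 6.82 in KO and 7.33 in WT, with a KO minus WT difference of -0.51. No test relates any of these genes to the members.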
